A study of Mus musculus with 16 samples.

Results

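Cytochrome P450 genes were followed in the mouse colon across 16 RNA-seq libraries. Members were the rows whose gene symbol is Cyp followed by a family number, a subfamily letter and a member number. Pseudogenes were left out, Cyp24a1 was not analysed here, and a member needed a value of 1 or more in 4 or more of the libraries. Of 92 symbols of this form 59 passed, out of 18267 genes tested and 24421 genes in the table. The 59 members fall into 12 families and 29 subfamilies, led by Cyp2c with 10 members, Cyp4f with 9, Cyp2d with 8 and Cyp2j with 4, while 23 subfamilies held 1 member each. Among the 33 symbols left out, Cyp17a1, Cyp2a5, Cyp2j5 and Cyp4a14 reached 1 in 3 libraries, while Cyp2a22, Cyp2j8, Cyp3a11, Cyp3a25 and Cyp4f37 were kept with 4. The liver bile acid enzyme Cyp7a1 was listed at 0 in every library. Cyp51, Cyp2ab1 and Cyp4a30b passed the same limit on low values but do not have a symbol of this form.

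The mice were C57BL/6 at 8 weeks of age, and each library was made from the colon RNA of 3 pooled mice. DIEC DSS mice lacked NCoR1 in intestinal epithelial cells and drank 2.5% dextran sulfate sodium (DSS), a polymer that injures the colon lining, with RNA taken on day 3. DIEC naive mice carried the same deletion and drank water. F/F DSS mice had intact floxed Ncor1 alleles, labelled wild type, and drank 2.5% DSS for the same time. F/F naive mice had the same alleles and drank water. Each group had 4 libraries. NCoR1 is a corepressor that nuclear receptors use to silence genes. The driver that deletes it is not named in the sources used here, and the deletion leaves the other cells of the colon wall intact, where Ncor1 RNA can remain. The p-values measure the spread between pools of mice, not between single animals.

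Cytochrome P450 enzymes are heme proteins that insert an oxygen atom into drugs, fatty acids, sterols, bile acids, retinoids and steroid hormones. Those of the endoplasmic reticulum take electrons from P450 oxidoreductase, and those of mitochondria from ferredoxin. The gut wall uses them in first-pass drug metabolism and in the local turnover of arachidonic acid, and nuclear receptors control many of their genes.

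Sequences of 2 kinds are shown because they bear on how the values can be read. The first is the coding sequence of the loop that holds the heme, with the codon of the cysteine that binds the iron in capitals, taken from GENCODE M21 transcripts on GRCm38. It was found in 51 of the 57 members with a coding sequence there. The loops of neighbouring genes of a subfamily are nearly the same, and Cyp2d10 and Cyp2d34 share 30 of 30 bases, as do Cyp2c68 and Cyp2c69, whereas Cyp2c55 and Cyp2c65 share 25 of 30.
Cyp2d10: ttctcagcaggccgcagatcaTGCctgggt
Cyp2d34: ttctcagcaggccgcagatcaTGCctgggt
Cyp2d9: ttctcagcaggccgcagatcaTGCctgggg
Cyp2d26: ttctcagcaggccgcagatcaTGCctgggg
Cyp2c55: ttctcaataggaaagcgaatgTGCgtggga
Cyp2c65: ttctcaacaggaaaacggattTGTgtggga
Cyp2c68: ttctcagcaggaaaacggattTGTgtggga
Cyp2c69: ttctcagcaggaaaacggattTGTgtggga
Cyp2w1: ttctccgctggtcgccgggtcTGCgttggg
Cyp3a13: tttgggagtggaccaaggaacTGCattggc

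Reads from such stretches cannot be told apart by sequence, so the share of each gene's 50-base words that also occur in another gene was counted. Of 57 members found in the transcripts, 17 shared no word and 19 shared at least 10%. Cyp2c40 shared 70.2% of its words with other genes, Cyp2c69 54.8%, Cyp2c67 52.8% and Cyp2c68 43.3%. Among the Cyp2d genes Cyp2d11 shared 37.2%, Cyp2d10 36.7%, Cyp2d9 29.3%, Cyp2d12 17.1%, Cyp2d34 13.7%, Cyp2d26 10.5% and Cyp2d22 6.03%. Cyp2c65 shared 20.6%, nearly all with Cyp2c66. Values within these sets are therefore uncertain as to which gene gave the reads, and Cyp2c55, with 0.514%, is not among them.

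The second kind is the stretch before the gene start, searched because nuclear receptors control many P450 genes. RefSeq promoters on GRCm38.p6, from 250 bases before to 50 bases after the start, were matched for 48 of the 59 members. Only the 250 bases before the start were searched. The letters CAAAGTCCA, bound by the nuclear receptor HNF4, occurred on either strand in 8 of these 48 (16.7%) and in 0.451% of 27025 genes. Of these 8, 6 are Cyp2c genes of the same cluster on chromosome 19, whose promoters resemble each other, so they are not independent cases, and the other 2 are Cyp3a11 and Cyp8b1. The match is in capitals.
Cyp2c65: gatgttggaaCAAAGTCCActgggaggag
Cyp2c67: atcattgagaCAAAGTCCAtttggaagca
Cyp2c68: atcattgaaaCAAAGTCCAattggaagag
Cyp2c40: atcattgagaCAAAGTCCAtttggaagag
Cyp2c69: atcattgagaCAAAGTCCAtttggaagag
Cyp2c70: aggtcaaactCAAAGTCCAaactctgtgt

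GCGTG, the core bound by the aryl hydrocarbon receptor, was found on either strand in 27.1% of the 48 and in 30.9% of all promoters. AGGTCA, the half-site of many nuclear receptors, was found in 12.5% against 15.8%, and AGATAA, read by GATA factors, in 16.7% against 11.4%. TTTATGG, read by CDX factors, was found in 2.08% against 2.83%. Direct repeats of AGGTCA were in none of the 48 promoters, beside 0.0407% of all promoters for repeats with 1 base between the half-sites and 0.0148% for those with 4. The 250 bases before the start are shown for Cyp2w1, whose response to DSS differed most between the genotypes, and for the neighbours Cyp2c55, which was not called with DSS, and Cyp2c65, which was lower with DSS in both genotypes. They lie at chr5:139352366-139352615, chr19:39006769-39007018 and chr19:39060756-39061005 of GRCm38.p6, all on the plus strand. Capitals mark GCGTG on the minus strand in Cyp2w1, AGATAA in Cyp2c55 and CAAAGTCCA in Cyp2c65.
Cyp2w1: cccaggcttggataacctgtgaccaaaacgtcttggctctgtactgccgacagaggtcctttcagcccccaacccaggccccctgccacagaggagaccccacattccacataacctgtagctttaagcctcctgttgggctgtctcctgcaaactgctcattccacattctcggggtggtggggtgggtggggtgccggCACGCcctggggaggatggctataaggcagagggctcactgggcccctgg
Cyp2c55: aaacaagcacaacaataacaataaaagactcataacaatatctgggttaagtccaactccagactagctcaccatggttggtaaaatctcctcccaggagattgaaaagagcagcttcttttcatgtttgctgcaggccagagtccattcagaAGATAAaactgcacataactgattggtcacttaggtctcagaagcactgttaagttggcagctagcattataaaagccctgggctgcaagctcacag
Cyp2c65: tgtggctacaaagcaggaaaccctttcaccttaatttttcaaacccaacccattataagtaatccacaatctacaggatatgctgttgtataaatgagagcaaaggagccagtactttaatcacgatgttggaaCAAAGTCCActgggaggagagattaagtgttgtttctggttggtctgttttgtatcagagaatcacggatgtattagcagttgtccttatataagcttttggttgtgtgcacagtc

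The libraries held 19957413 to 34733832 reads on genes. A value below is the number of reads on a gene's exons after the authors multiplied each library by 1 factor, which made every library sum to the same total, and 1 read was worth 0.7645 to 1.3305. Ncor1 lay between 1343 and 1663 in DIEC DSS and between 1756 and 1979 in DIEC naive libraries, against 3689 to 4078 in F/F DSS and 3445 to 3730 in F/F naive libraries, so all DIEC libraries were below all F/F libraries. Colonocyte, goblet cell and smooth muscle markers were high throughout. The 9 proliferation markers summed to 1810 to 2617 in DIEC DSS, against 13600 to 17880 in DIEC naive, and to 2531 to 6659 in F/F DSS, against 14090 to 24940 in F/F naive libraries. In bulk tissue fewer cells of a type and less RNA per cell cannot be told apart. Pancreatic acinar markers were far above the other libraries in DIEC naive 1, at a sum of 527500, and no call named below was lost only without it. They reached 109400 in F/F naive 4 and 85780 in DIEC naive 2, against 7724 to 11270 in DIEC DSS and 10460 to 13840 in F/F DSS. Of 8 acinar markers tested, 7 (87.5%) were called lower with DSS in each genotype, beside 40% and 28.5% of all genes. Leaving out 1 library does not remove this difference. Its part in the P450 values was not tested.

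The scaling matters for every comparison with DIEC DSS. The 100 highest genes took 25.1 to 28% of all reads in DIEC DSS libraries, against 19.9 to 22.5% in DIEC naive libraries. With TMM scaling, which aligns the bulk of the genes and not the totals, log2 changes moved up by a median of 0.253 for DIEC DSS against DIEC naive, 0.189 for DIEC DSS against F/F DSS, 0.102 for F/F DSS against F/F naive, 0.038 for DIEC naive against F/F naive and 0.152 for the difference between the genotypes' DSS responses. Changes below are on the authors' scale as log2(value + 1) with their standard error and the limma p-value adjusted over all genes, a gene is called at an adjusted p under 0.05, and a call that TMM scaling ends is named as such.

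Together the P450 members made up 0.273 to 0.319% of a DIEC DSS library, against 0.232 to 0.311% of a DIEC naive library, and 0.249 to 0.26% of an F/F DSS library, against 0.207 to 0.224% of an F/F naive library. Of the 59, 16 had a mean of at least 1000, 24 a mean between 10 and 1000 and 19 a mean under 10. Per kilobase of gene model, Cyp2c55 and Cyp2d34 led in all 4 groups. Cyp2c55 averaged 10770 per kilobase in DIEC DSS, against 11310 in DIEC naive, and 7842 in F/F DSS, against 6126 in F/F naive libraries. Cyp2d34 averaged 9715 in DIEC DSS, against 7766 in DIEC naive, and 7920 in F/F DSS, against 6228 in F/F naive libraries. As a share of all P450 levels per kilobase, Cyp2c55 ran from 9.45 to 33.5% in DIEC DSS, against 17.7 to 36.3% in DIEC naive, and from 7.8 to 27.9% in F/F DSS, against 8.3 to 26.6% in F/F naive libraries. The order of these 2 genes changed between libraries of the same group, so their levels did not differ beyond that spread.

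**Figure D1:**
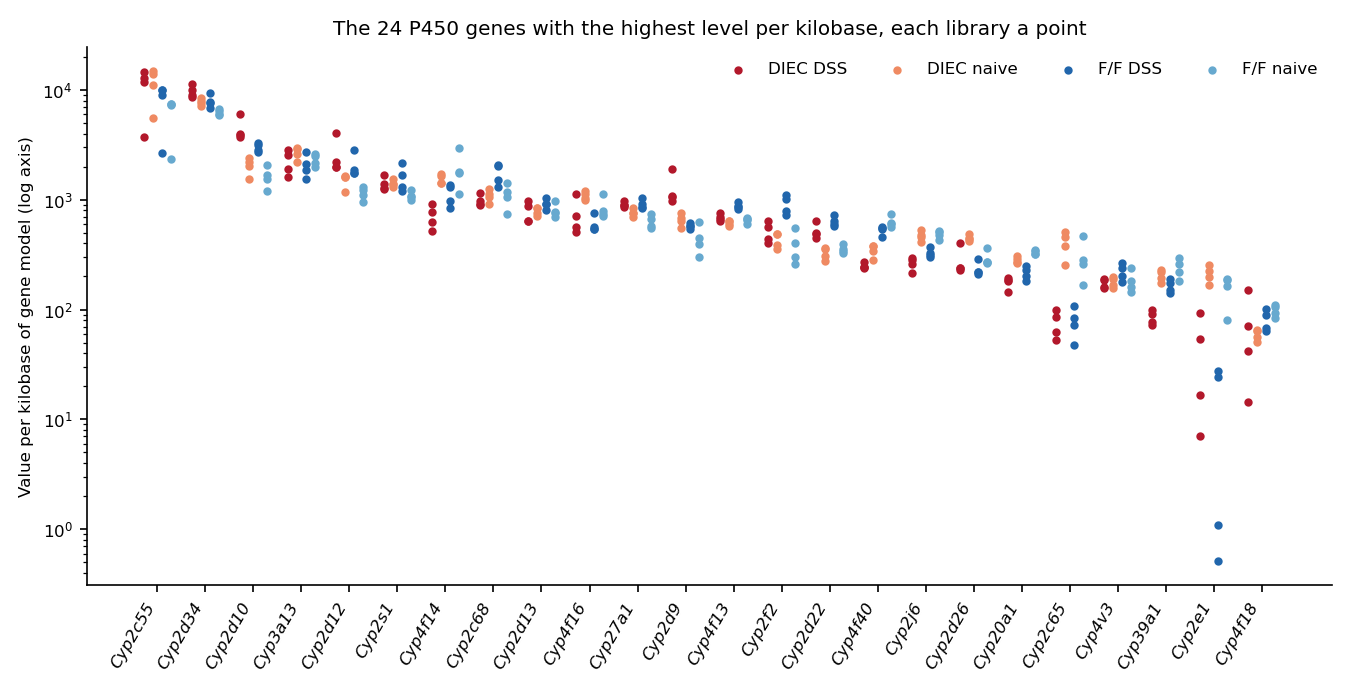
Deposited value per kilobase of gene model (log axis) for the 24 P450 genes with the highest mean level, each point 1 library and each colour 1 group. Cyp2c55 and Cyp2d34 lead, 1 Cyp2c55 point lies apart below the others in each group, and Cyp2c65 and Cyp2e1 are lower in the DSS libraries of both genotypes.

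With DSS, 6 members were higher (10.2%) and 17 lower (28.8%) in DIEC DSS against DIEC naive libraries, beside 12.3% and 40% of all genes tested. In F/F DSS against F/F naive libraries 13 were higher (22%) and 7 lower (11.9%), beside 16.3% and 28.5% of all genes. The median member changed by -0.15 in DIEC mice and by 0.11 in F/F mice, beside -0.244 and -0.107 for all genes. After TMM scaling the counts were 8 higher and 12 lower in DIEC mice, beside 25.1% and 26.3% of all genes, and 14 higher and 6 lower in F/F mice, beside 22.8% and 22.5%. With edgeR on the recovered reads, which kept 44 members, 8 were higher and 11 lower in DIEC mice, beside 29.3% and 29.7% of the 15695 genes, and 14 higher and 7 lower in F/F mice, beside 26.4% and 26.9%. In both genotypes Cyp2d10, Cyp2d12, Cyp2d22, Cyp2d34 and Cyp27a1 rose, and Cyp20a1, Cyp2c65, Cyp2e1, Cyp2j6, Cyp2r1, Cyp39a1 and Cyp4f14 fell. The loss of NCoR1 in naive colon went with 1 member higher, Cyp2d26, and 1 lower, Cyp4f40, beside 1.41% and 0.821% of all genes. TMM scaling and edgeR also gave 1 higher and 1 lower, beside 1.78% and 0.673%, and 2.16% and 0.937%, of all genes. Under DSS, 3 members were higher and 15 lower in DIEC DSS against F/F DSS libraries, beside 3.28% and 26% of all genes. TMM scaling left 3 higher and 5 lower, beside 6.68% and 7.38%, and edgeR gave 3 and 6, beside 8.31% and 8.55%. TMM scaling ended the calls of Cyp11a1, Cyp20a1, Cyp27b1, Cyp2c68, Cyp2c70, Cyp2d22, Cyp2f2, Cyp2j6, Cyp4f13 and Cyp4f17. The response to DSS itself differed between the genotypes for 3 members, all lower in DIEC, beside 3.34% of all genes lower and 0.29% higher. With TMM scaling and with edgeR 1 was lower, beside 0.383% and 0.471% lower and 0.257% and 0.331% higher. In all, 26 members were called in no comparison, among them genes near the limit on low values such as Cyp2a22, Cyp3a11 and Cyp4f37. The matching share of all genes was not counted, so this number is not set against a background.

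**Figure D2:**
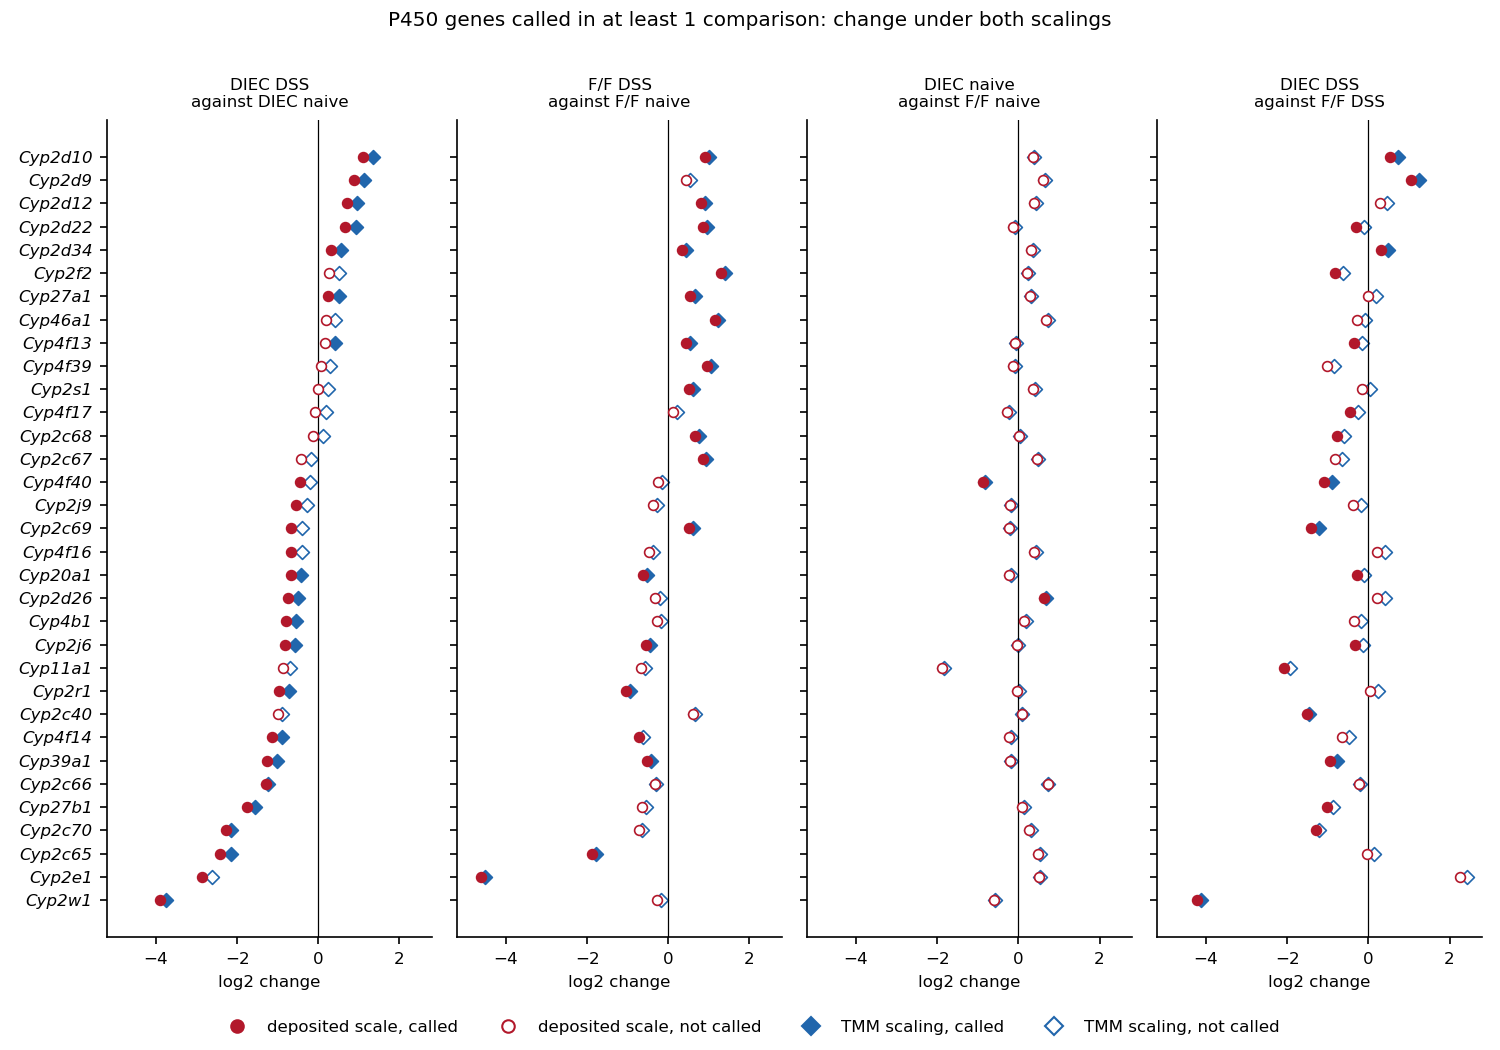
Log2 change of the 33 P450 genes called in at least 1 comparison, 1 panel per comparison, on the deposited scale (circles) and after TMM scaling (diamonds), filled where the adjusted p was under 0.05. TMM scaling moves the points to the right, most in DIEC DSS against DIEC naive, and 10 members lose their call in DIEC DSS against F/F DSS.

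Of the 8 Cyp2d genes, 5 rose and 1 fell with DSS in DIEC mice, where 12.3% of all genes tested rose and 40% fell. In F/F mice 4 rose and 0 fell, beside 16.3% and 28.5% of all genes. TMM scaling ended none of these Cyp2d calls with DSS and added none. On that scale 25.1% of all genes rose and 26.3% fell in DIEC mice, and 22.8% and 22.5% in F/F mice. This subfamily oxidises drugs and steroids, and its human relative CYP2D6 clears many prescribed drugs. In the mm9 gene models of the file they lie in a row on chromosome 15, in the order Cyp2d22, Cyp2d11, Cyp2d10, Cyp2d9, Cyp2d12, Cyp2d34, Cyp2d13 and Cyp2d26, from base 82200957 to base 82624675. Cyp2d10 had values of 6097, 9847, 6419 and 6396 in DIEC DSS libraries, against 3296, 3913, 2543 and 3603 in DIEC naive libraries. Cyp2d10 in F/F mice had 4436, 5324, 5102 and 4653 in F/F DSS libraries, against 2741, 2502, 1958 and 3376 in F/F naive libraries. All DSS libraries were above all naive libraries of their genotype, and all DIEC DSS libraries were above all F/F DSS libraries. The log2 change with DSS was 1.10 ± 0.18 (adjusted p = 8.5e-05) in DIEC and 0.91 ± 0.18 (adjusted p = 0.0007) in F/F mice, and DIEC DSS exceeded F/F DSS by 0.53 ± 0.18 (adjusted p = 0.034). Cyp2d34 had values of 14518, 18199.8, 16158 and 13729 in DIEC DSS libraries, against 12649, 13667, 11483 and 12246 in DIEC naive libraries. Cyp2d34 in F/F mice had 11093, 15160.1, 12308 and 12475 in F/F DSS libraries, against 9427, 10295, 9666 and 10747 in F/F naive libraries. Here too the DSS libraries lay above the naive ones of their genotype, with changes of 0.32 ± 0.10 (adjusted p = 0.011) in DIEC and 0.34 ± 0.10 (adjusted p = 0.0087) in F/F mice. Under DSS the 2 genotypes overlapped, although DIEC DSS was called higher by 0.30 ± 0.10 (adjusted p = 0.03).

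Cyp2d9, a testosterone 16-alpha-hydroxylase of male mouse liver, had values of 1771, 3129, 1719.7 and 1583 in DIEC DSS libraries, against 1057, 1252, 907 and 1128 in DIEC naive libraries. Cyp2d9 in F/F mice had 891, 1014, 946 and 953 in F/F DSS libraries, against 736, 649.7, 494 and 1036 in F/F naive libraries. The DIEC DSS libraries stood above all others and did not overlap either comparison group. The change was 0.87 ± 0.22 (adjusted p = 0.0039) against DIEC naive and 1.05 ± 0.22 (adjusted p = 0.003) against F/F DSS. F/F DSS against F/F naive gave 0.43 ± 0.22 (adjusted p = 0.13), and the genotypes' responses differed by 0.44 ± 0.31 (adjusted p = 0.45), which does not pass the threshold. Cyp2d12 had values of 3229, 6490.2, 3579.9 and 3209.6 in DIEC DSS libraries, against 2597, 2628, 1909 and 2624 in DIEC naive libraries. Cyp2d12 in F/F mice had 2802, 4597, 2990.00 and 2850.1 in F/F DSS libraries, against 1794, 1989.5, 1523 and 2125 in F/F naive libraries. Within both genotypes the DSS and naive libraries were apart, by 0.70 ± 0.22 (adjusted p = 0.016) in DIEC and 0.81 ± 0.22 (adjusted p = 0.0087) in F/F mice. Cyp2d22, the mouse gene most often set beside human CYP2D6, had values of 1234, 1769.6, 1329.8 and 1371 in DIEC DSS libraries, against 993, 839.9, 766 and 983 in DIEC naive libraries. Cyp2d22 in F/F mice had 1599, 1979, 1763 and 1644 in F/F DSS libraries, against 933, 971, 892 and 1083 in F/F naive libraries. It rose by 0.67 ± 0.11 (adjusted p = 4.5e-05) in DIEC and 0.85 ± 0.11 (adjusted p = 9e-06) in F/F mice without overlap. Under DSS it was called lower in DIEC with a log2 change of -0.30 ± 0.11 (adjusted p = 0.047), with overlapping groups, and this call ended at -0.11 after TMM scaling (adjusted p = 0.62).

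Cyp2d26, at the far end of the row, went the other way. It had values of 393, 656, 377 and 388 in DIEC DSS libraries, against 724, 739, 692 and 805 in DIEC naive libraries. Cyp2d26 in F/F mice had 357, 469, 345 and 362 in F/F DSS libraries, against 442, 431, 445 and 594 in F/F naive libraries. The DIEC naive libraries stood above all other libraries. It fell with a log2 change of -0.74 ± 0.16 (adjusted p = 0.00049) with DSS in DIEC mice and was higher by 0.64 ± 0.16 (adjusted p = 0.033) in DIEC naive against F/F naive mice, while DSS in F/F mice gave -0.32 ± 0.16 (adjusted p = 0.11). Cyp2d13 stayed between 1052 and 1596 in DIEC DSS, against 1163 and 1366 in DIEC naive, and between 1307 and 1696 in F/F DSS, against 1133 and 1589 in F/F naive libraries, and was not called. Cyp2d11 stood between 7 and 20.9 in DIEC DSS, against 7.84 and 23.7 in DIEC naive, and between 13.8 and 35.5 in F/F DSS, against 8.98 and 22.7 in F/F naive libraries, without a call. DIEC DSS 2 and F/F DSS 2 held the highest value of their group for Cyp2d10, Cyp2d12, Cyp2d9, Cyp2d26 and Cyp2d34, and the highest sum of absorptive colonocyte markers, 1597000 and 1163000. The part of these markers in the Cyp2d values was not tested. Leaving out 1 library ended the Cyp2d12 call in DIEC without DIEC naive 3 (adjusted p = 0.053). It ended the Cyp2d10 call between the DSS groups without DIEC DSS 2, or F/F DSS 1, 3 or 4 (adjusted p up to 0.091), that of Cyp2d34 without DIEC DSS 2 or 3, or F/F DSS 1, 3 or 4 (adjusted p up to 0.11) and that of Cyp2d22 without DIEC DSS 1, 3 or 4, or F/F DSS 2, 3 or 4 (adjusted p up to 0.13). The Cyp2d26 call between the naive groups ended without DIEC naive 1, 2, 3 or 4, or F/F naive 1, 2 or 3 (adjusted p up to 0.12).

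**Figure D3:**
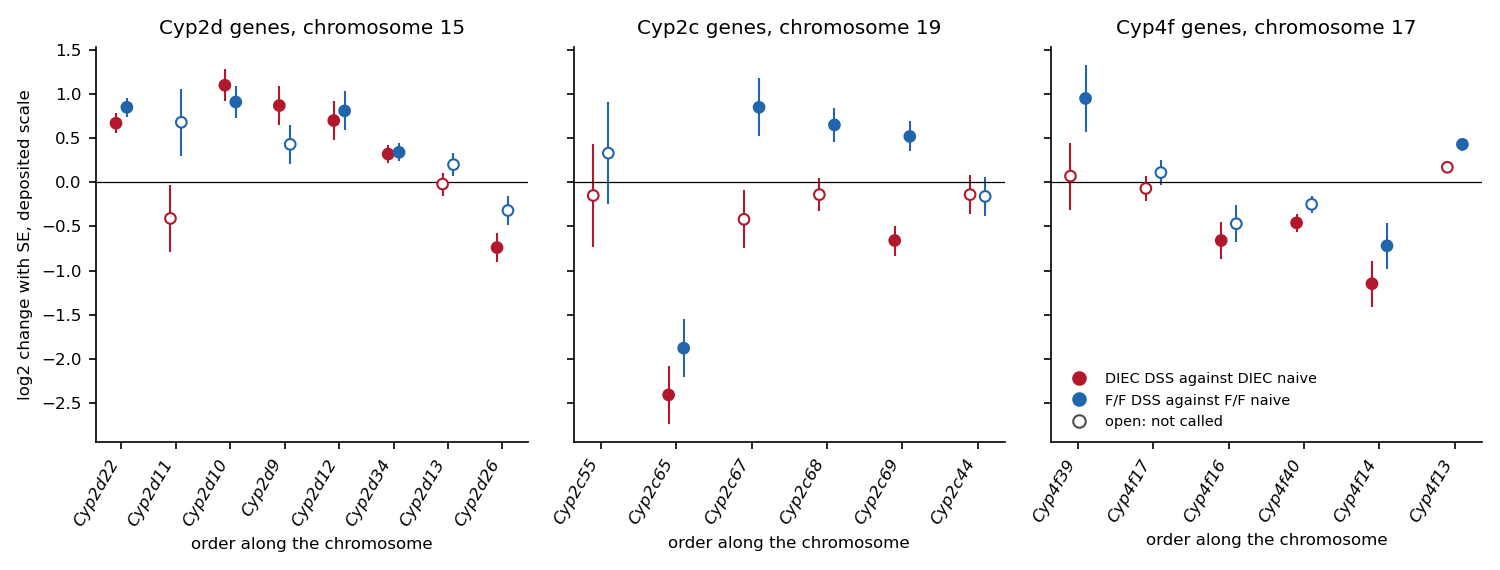
Log2 change with DSS (deposited scale, bars are standard errors) in DIEC mice (red) and F/F mice (blue), with filled points called. Shown in chromosome order are the Cyp2d (chromosome 15), Cyp2c (chromosome 19) and Cyp4f (chromosome 17) genes with a mean value of at least 10. Cyp4f18, on chromosome 8, is not shown. Neighbouring genes from Cyp2d22 to Cyp2d34 are mostly up while Cyp2d26 is down, and Cyp2c65 is far below its neighbours.

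Cyp2c enzymes turn arachidonic acid into epoxides and hydroxy acids, and several are most abundant in the mouse gut. Cyp2c65 showed the largest fall with DSS in the subfamily among genes with a mean of at least 10, while its neighbour Cyp2c55 was not called. Cyp2c65 had values of 189.7, 102, 121 and 164 in DIEC DSS libraries, against 732, 982, 874 and 495 in DIEC naive libraries. Cyp2c65 in F/F mice had 160.2, 92.5, 138 and 208 in F/F DSS libraries, against 322, 548, 899 and 500.2 in F/F naive libraries. Every DSS library of either genotype lay below every naive library. The change was -2.41 ± 0.33 (adjusted p = 2.2e-05) in DIEC and -1.88 ± 0.33 (adjusted p = 0.00034) in F/F mice, and the 2 responses differed by -0.53 ± 0.46 (adjusted p = 0.54). Cyp2c55, with Cyp2d34 one of the pair of P450 genes with the highest levels per kilobase, had values of 23506, 7324, 28999 and 25379.7 in DIEC DSS libraries, against 22075, 29089.9, 27366 and 10990.1 in DIEC naive libraries. Cyp2c55 in F/F mice had 19589.5, 5299, 19579 and 17582 in F/F DSS libraries, against 14409, 14818, 14591 and 4648 in F/F naive libraries. In each group 1 library was far below the other 3, and all group pairs overlapped. Those libraries, DIEC DSS 2, DIEC naive 4, F/F DSS 2 and F/F naive 4, also had the lowest goblet cell marker sum of their group, at 703800, 575200, 533900 and 582100. The part of the goblet markers in this was not tested. The change with DSS was -0.15 ± 0.58 (adjusted p = 0.85) in DIEC and 0.33 ± 0.58 (adjusted p = 0.69) in F/F mice, and DIEC naive against F/F naive gave 0.93 ± 0.58 (adjusted p = 0.52).

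Cyp2c69 was the member called in opposite directions with DSS in the 2 genotypes. It had values of 56.3, 64.8, 89.3 and 65.5 in DIEC DSS libraries, against 116, 121, 118 and 81.3 in DIEC naive libraries. Cyp2c69 in F/F mice had 170.2, 151, 202 and 214 in F/F DSS libraries, against 141, 129, 105 and 136 in F/F naive libraries. F/F DSS libraries were above all others, and DIEC DSS libraries were below all F/F libraries but overlapped DIEC naive 4. It fell with a log2 change of -0.66 ± 0.17 (adjusted p = 0.0031) in DIEC and rose by 0.52 ± 0.17 (adjusted p = 0.019) in F/F mice, and the responses differed by -1.18 ± 0.24 (adjusted p = 0.018). The fall in DIEC ended at -0.41 after TMM scaling (adjusted p = 0.053) and the difference of responses at -1.03 after TMM scaling (adjusted p = 0.058), whereas DIEC DSS against F/F DSS was -1.41 ± 0.17 (adjusted p = 2e-05) and -1.22 after TMM scaling (adjusted p = 9.6e-05). Cyp2c68 had values of 1709, 1610.3, 2034 and 1579 in DIEC DSS libraries, against 2215, 1964, 1615 and 1868 in DIEC naive libraries. Cyp2c68 in F/F mice had 3537, 3606, 2632 and 2283 in F/F DSS libraries, against 2519, 1864, 1296 and 2078 in F/F naive libraries. It rose by 0.65 ± 0.19 (adjusted p = 0.011) in F/F mice, although F/F naive 1 exceeded F/F DSS 4, and DIEC DSS lay below F/F DSS with a log2 change of -0.78 ± 0.19 (adjusted p = 0.0066), which became -0.59 after TMM scaling (adjusted p = 0.065). Cyp2c67 had values of 10.4, 3.5, 12.8 and 9.35 in DIEC DSS libraries, against 9.18, 9.1, 11.97 and 16.7 in DIEC naive libraries. Cyp2c67 in F/F mice had 11.1, 18.4, 21.3 and 12.4 in F/F DSS libraries, against 7.86, 7.71, 8.26 and 8.27 in F/F naive libraries. The 4 F/F naive libraries lay below all F/F DSS libraries, a rise of 0.85 ± 0.33 (adjusted p = 0.043). These 3 genes share much of their sequence, so which of them gave the reads is uncertain. The F/F call of Cyp2c69 ended without F/F DSS 3 or 4, or F/F naive 3 (adjusted p up to 0.07), and that of Cyp2c67 without F/F DSS 2 or 3, or F/F naive 1, 2, 3 or 4 (adjusted p up to 0.13).

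The remaining Cyp2c genes were low. Cyp2c70, which makes the muricholic acids of mouse bile, had values of 1.04, 0, 2.32 and 0 in DIEC DSS libraries, against 3.44, 10.9, 7.98 and 6.86 in DIEC naive libraries. Cyp2c70 in F/F mice had 3.02, 3.06, 0.89 and 6.66 in F/F DSS libraries, against 4.49, 7.71, 3.54 and 7.23 in F/F naive libraries. DIEC DSS held 3 reads in all against 28 in DIEC naive, a ratio of 0.0994 with a 95% exact interval of 0.0193 to 0.322 for counting error, and the log2 change was -2.28 ± 0.47 (adjusted p = 0.00045) without overlap. Against 15 reads in F/F DSS the ratio was 0.222 (0.0412 to 0.785), with a change of -1.28 ± 0.47 (adjusted p = 0.049) that ended at -1.21 after TMM scaling (adjusted p = 0.11) and without DIEC DSS 1, 2 or 4, or F/F DSS 1, 2 or 4 (adjusted p up to 0.17). Cyp2c40, a 16-hydroxylase of arachidonic acid, had values of 1.04, 1.75, 0 and 0 in DIEC DSS libraries, against 1.15, 2.73, 2.66 and 1.96 in DIEC naive libraries. Cyp2c40 in F/F mice had 6.04, 1.53, 4.43 and 2.85 in F/F DSS libraries, against 2.25, 3.86, 1.18 and 1.03 in F/F naive libraries. With 3 reads in DIEC DSS against 16 in F/F DSS the ratio was 0.208 (0.0389 to 0.728), and the change of -1.51 ± 0.44 (adjusted p = 0.016) ended without DIEC DSS 3 or 4, or F/F DSS 1 (adjusted p up to 0.059). Cyp2c66 had values of 0, 0, 0 and 0.93 in DIEC DSS libraries, against 2.29, 3.64, 1.33 and 0.98 in DIEC naive libraries. Cyp2c66 in F/F mice had 0, 0, 0.89 and 0.95 in F/F DSS libraries, against 0, 1.93, 0 and 2.07 in F/F naive libraries. It passed the limit on low values mainly through DIEC naive libraries, so the direction of its call there, -1.30 ± 0.49 (adjusted p = 0.031), was largely set by that limit, and with 1 read against 8 the ratio was 0.116 (0.00261 to 0.865). Its call ended without DIEC DSS 1, 2 or 3, or DIEC naive 1 or 2 (adjusted p up to 0.1). Cyp2c44, an epoxygenase of vessels and kidney, stayed between 46.4 and 92.8 in all DIEC libraries and between 42.5 and 79.7 in all F/F libraries, and Cyp2c29 reached at most 4.49. Neither was called.

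Among the members, Cyp2w1 gave the largest difference between the genotypes in the response to DSS. It is an orphan P450 known from fetal colon and colon tumours. In mm9 its model lies at chr5:139828571-139832987. It had values of 3.13, 1.75, 0 and 1.87 in DIEC DSS libraries, against 36.7, 35.5, 34.6 and 31.4 in DIEC naive libraries. Cyp2w1 in F/F mice had 80.6, 14.5, 49.6 and 59.9 in F/F DSS libraries, against 60.6, 49.2, 43.7 and 62.01 in F/F naive libraries. DIEC DSS libraries were at or near 0 and below all 12 others, and F/F DSS 2 was the lowest of the rest. In DIEC mice the change with DSS was -3.89 ± 0.44 (adjusted p = 8e-07), and in F/F mice -0.29 ± 0.44 (adjusted p = 0.63). The responses, DIEC minus F/F, differed by -3.60 ± 0.62 (adjusted p = 0.0081), and by -3.55 after TMM scaling (adjusted p = 0.012). DIEC DSS held 7 reads against 129 in DIEC naive, a ratio of 0.0504 (95% exact interval for counting error 0.0198 to 0.107), and against 218 in F/F DSS, a ratio of 0.0357 (0.0142 to 0.0748). No single library ended any of these calls. Crypt base and stem cell markers summed to 2387 to 4956 in DIEC DSS, against 11540 to 14190 in DIEC naive, and to 3559 to 11450 in F/F DSS, against 14670 to 29130 in F/F naive libraries, and F/F DSS 2 had the lowest F/F sum. The order within other groups went the other way. F/F naive 4 had the lowest sum of its group, 14670, but the highest Cyp2w1 value, 62.01. DIEC naive 4 had the highest sum of its group, 14190, but the lowest Cyp2w1 value, 31.4. DIEC DSS 4 had a higher sum than F/F DSS 2, 4956 against 3559, but a lower Cyp2w1 value, 1.87 against 14.5. The part of these markers in the Cyp2w1 values was not tested.

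**Figure D4:**
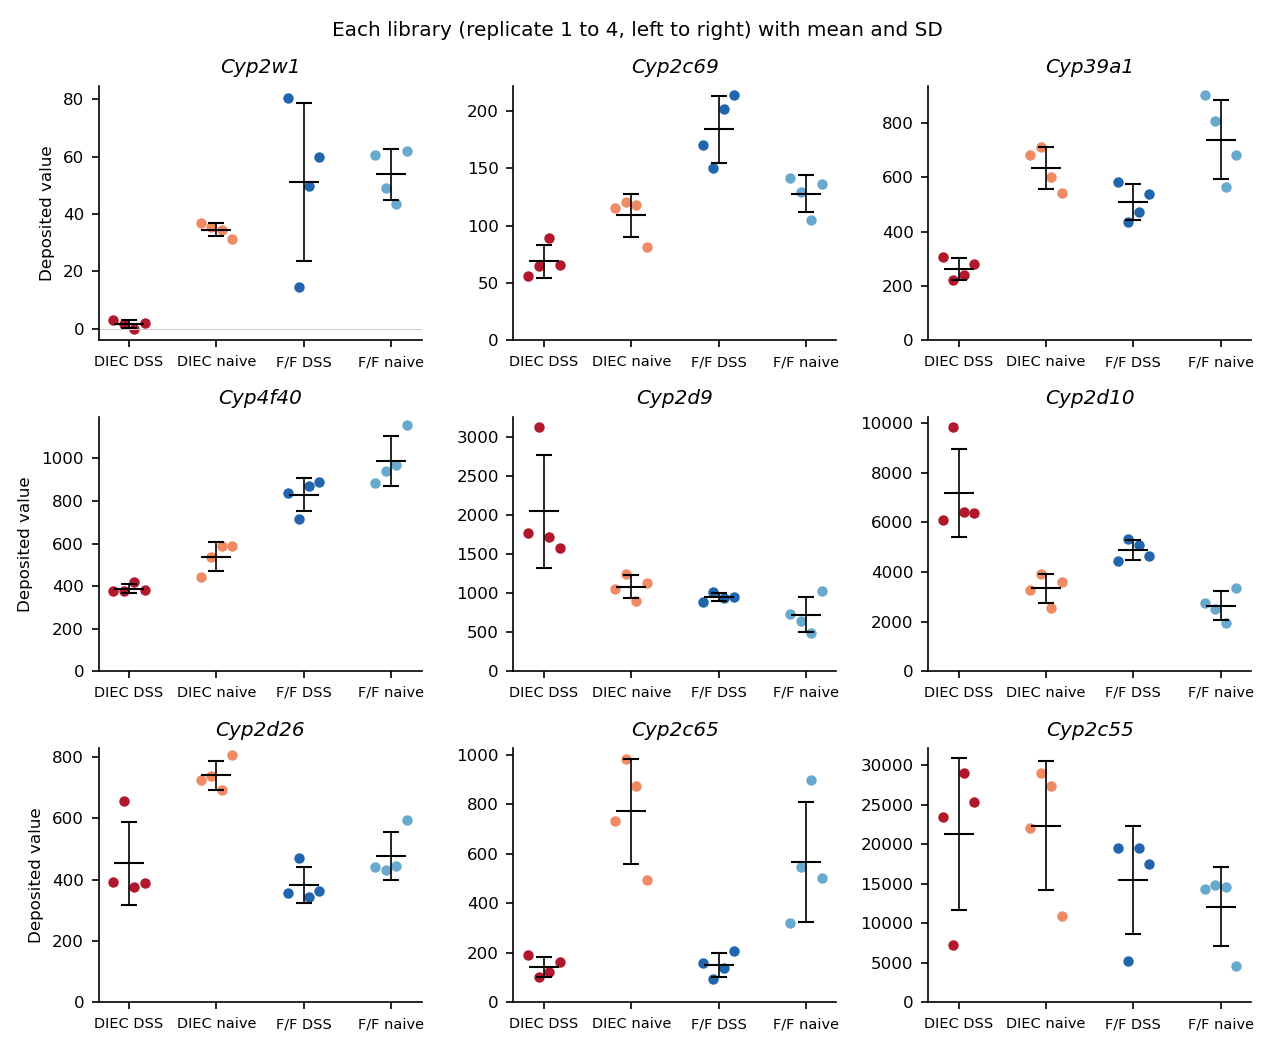
Deposited values of 9 P450 genes in every library (points, replicates 1 to 4 from left to right) with the group mean and SD. Cyp2w1 is near 0 in DIEC DSS only, Cyp4f40 is lower in both DIEC groups, Cyp2c65 is low in both DSS groups, and Cyp2c55 has 1 low library in each group.

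Among the other family 2 enzymes, Cyp2f2, which activates naphthalene in the lung airway, Cyp2s1, an epithelial P450 of lipid and retinoid substrates, and the arachidonate enzyme Cyp2j6 had the highest levels per kilobase. Cyp2f2 had values of 1029, 737, 1165 and 801 in DIEC DSS libraries, against 879.9, 638, 699 and 876 in DIEC naive libraries. Cyp2f2 in F/F mice had 1840.2, 2001, 1419.7 and 1312 in F/F DSS libraries, against 1004, 542, 474 and 731 in F/F naive libraries. F/F DSS libraries were above all others, a rise of 1.29 ± 0.23 (adjusted p = 0.00033), while DIEC mice gave 0.26 ± 0.23 (adjusted p = 0.37) and the responses differed by -1.03 ± 0.32 (adjusted p = 0.082). DIEC DSS was below F/F DSS with a log2 change of -0.82 ± 0.23 (adjusted p = 0.014), which ended at -0.63 after TMM scaling (adjusted p = 0.089). Cyp2s1 had values of 4394, 3653, 3234 and 3351 in DIEC DSS libraries, against 3425, 3591, 4054 and 3605 in DIEC naive libraries. Cyp2s1 in F/F mice had 5608, 4348, 3152 and 3438 in F/F DSS libraries, against 3208, 2782, 2588 and 2834 in F/F naive libraries. It rose in F/F mice by 0.50 ± 0.14 (adjusted p = 0.0086) with F/F naive 1 above F/F DSS 3, and in DIEC mice the change was -0.01 ± 0.14 (adjusted p = 0.96).

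Cyp2j6 had values of 1061, 766, 1006 and 939.6 in DIEC DSS libraries, against 1637, 1879.9, 1704 and 1483 in DIEC naive libraries. Cyp2j6 in F/F mice had 1334, 1175, 1117 and 1088 in F/F DSS libraries, against 1844, 1819.9, 1538 and 1703 in F/F naive libraries. DSS libraries lay below naive ones in both genotypes, with changes of -0.83 ± 0.10 (adjusted p = 1.3e-06) in DIEC and -0.55 ± 0.10 (adjusted p = 0.00022) in F/F mice. DIEC DSS was below F/F DSS with a log2 change of -0.33 ± 0.10 (adjusted p = 0.021), a call that ended at -0.14 after TMM scaling (adjusted p = 0.43) and without DIEC DSS 2, or F/F DSS 1 (adjusted p up to 0.08). Cyp2j9, an arachidonate 19-hydroxylase, had values of 94.8, 66.5, 56.9 and 65.5 in DIEC DSS libraries, against 122, 106, 106 and 77.4 in DIEC naive libraries. Cyp2j9 in F/F mice had 117, 86.4, 85.96 and 77.03 in F/F DSS libraries, against 140.4, 108, 105 and 118 in F/F naive libraries. Its fall in DIEC of -0.54 ± 0.18 (adjusted p = 0.018), with overlapping groups, ended at -0.29 after TMM scaling (adjusted p = 0.18) and without DIEC DSS 3, or DIEC naive 1 (adjusted p up to 0.066). Cyp2j13 reached at most 23.1 and Cyp2j8 at most 3.44 in any library, without a call. Cyp2u1, a fatty acid hydroxylase, had values of 72.95, 101, 68.5 and 43.9 in DIEC DSS libraries, against 67.7, 80.98, 66.5 and 65.7 in DIEC naive libraries. Cyp2u1 in F/F mice had 84.6, 69.6, 59.4 and 32.3 in F/F DSS libraries, against 75.2, 32.8, 23.6 and 47.5 in F/F naive libraries. All groups overlapped, and the smallest adjusted p was 0.24.

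Cyp2e1, which oxidises ethanol and is abundant in liver and fat, had values of 92.8, 28.9, 161 and 12.2 in DIEC DSS libraries, against 339.6, 288, 383 and 443 in DIEC naive libraries. Cyp2e1 in F/F mice had 42.3, 47.4, 0.89 and 1.9 in F/F DSS libraries, against 330.1, 138, 319 and 285 in F/F naive libraries. In each genotype every DSS library lay below every naive one. The change was -2.86 ± 1.06 (adjusted p = 0.038) in DIEC and -4.62 ± 1.06 (adjusted p = 0.0034) in F/F mice, where 2 DSS libraries stood at 0.89 and 1.9. The DIEC change was -2.61 after TMM scaling (adjusted p = 0.058), and the DIEC call ended without DIEC DSS 2 or 4, or DIEC naive 1, 2, 3 or 4 (adjusted p up to 0.11). The 8 adipocyte markers, Adipoq, Plin1, Cidec, Lep, Cfd, Retn, Fabp4 and Car3, were all detected, and their sum was 848 to 2865 in DIEC DSS, against 4393 to 5754 in DIEC naive, and 553.5 to 1441 in F/F DSS, against 2294 to 6174 in F/F naive libraries. F/F naive 2 and DIEC DSS 4 had the lowest adipocyte sum and the lowest Cyp2e1 value of their groups. DIEC naive 4 had the lowest adipocyte sum of its group, 4393, but the highest Cyp2e1 value, 443. In F/F DSS the adipocyte sum was lowest in replicate 4 and Cyp2e1 in replicate 3. The 8 hepatocyte markers summed to 443.7 to 632.4 in DIEC DSS, against 2215 to 2680 in DIEC naive, and to 712.5 to 1339 in F/F DSS, against 1719 to 2997 in F/F naive libraries. The part of either marker list in the Cyp2e1 result was not tested.

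**Figure D5:**
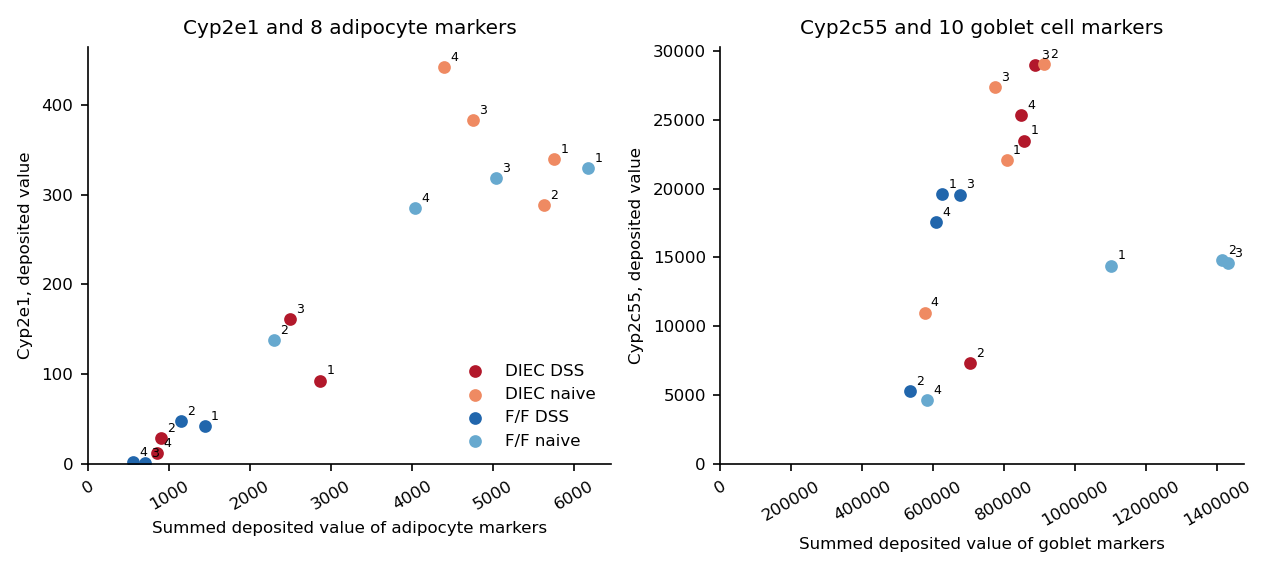
Cyp2e1 against the summed value of 8 adipocyte markers (left) and Cyp2c55 against the summed value of 10 goblet cell markers (right), each point 1 library labelled with its replicate number and coloured by group. Cyp2e1 and the adipocyte sum are both lower in the DSS groups, but within DIEC naive the library with the lowest sum has the highest Cyp2e1 value. In each group the library with the lowest Cyp2c55 value also has the lowest goblet marker sum.

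Families 1 and 3 and the drug-induced Cyp2b and Cyp2a genes are the classical targets of xenobiotic receptors, and none of their 8 members was called. Of all genes tested 12.3% rose and 40% fell with DSS in DIEC mice, and 16.3% and 28.5% in F/F mice. All of these members but Cyp3a13 had a mean under 10, from 0.43 for Cyp2a22 to 8.87 for Cyp2a12, where few reads limit any call. Cyp3a13, the main Cyp3a of the mouse gut, had values of 4706, 7519, 8368 and 5551 in DIEC DSS libraries, against 6440.3, 8557, 8634 and 7681 in DIEC naive libraries. Cyp3a13 in F/F mice had 4518, 7916, 5497 and 6164 in F/F DSS libraries, against 6392, 7359, 5878 and 7663 in F/F naive libraries. The groups overlapped throughout, with -0.29 ± 0.19 (adjusted p = 0.22) for DSS in DIEC and -0.20 ± 0.19 (adjusted p = 0.42) in F/F mice. Cyp3a11 and Cyp3a25, liver enzymes that share many drug substrates, reached at most 4.17 and 2.32. Cyp1a1, the classical target of the aryl hydrocarbon receptor, had values of 6.25, 7.88, 6.96 and 2.8 in DIEC DSS libraries, against 12.6, 4.55, 2.66 and 6.86 in DIEC naive libraries. Cyp1a1 in F/F mice had 7.05, 13, 15.9 and 8.56 in F/F DSS libraries, against 5.61, 4.82, 12.98 and 4.13 in F/F naive libraries. Its smallest adjusted p was 0.16, in DIEC DSS against F/F DSS. Cyp1b1, another target of that receptor, had values of 7.3, 1.75, 0 and 0.93 in DIEC DSS libraries, against 16.1, 0.91, 7.98 and 9.8 in DIEC naive libraries. Cyp1b1 in F/F mice had 2.01, 3.06, 0 and 5.71 in F/F DSS libraries, against 6.74, 3.86, 2.36 and 1.03 in F/F naive libraries. The smallest adjusted p was 0.093, for a change of -1.54 ± 0.74 in DIEC DSS against DIEC naive. Cyp2a12, which hydroxylates bile acids in mouse liver, had values of 6.25, 7.88, 15.1 and 2.8 in DIEC DSS libraries, against 8.03, 7.28, 2.66 and 6.86 in DIEC naive libraries. Cyp2a12 in F/F mice had 16.1, 10.7, 11.5 and 11.4 in F/F DSS libraries, against 13.5, 3.86, 11.8 and 6.2 in F/F naive libraries. All groups overlapped. Cyp2b10, the marker of the receptor CAR, had values of 1.04, 4.38, 3.48 and 0.93 in DIEC DSS libraries, against 1.15, 1.82, 2.66 and 1.96 in DIEC naive libraries. Cyp2b10 in F/F mice had 2.01, 2.29, 0.89 and 0.95 in F/F DSS libraries, against 2.25, 0, 1.18 and 1.03 in F/F naive libraries. Their smallest adjusted p were 0.21 and 0.57, and Cyp2a22 reached at most 2.07.

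Family 4 enzymes hydroxylate the tail of fatty acids and of eicosanoids such as leukotriene B4. Cyp4f40 was the P450 gene with the clearest dependence on genotype in naive colon. It had values of 376, 378, 421 and 381 in DIEC DSS libraries, against 443, 537, 591 and 588 in DIEC naive libraries. Cyp4f40 in F/F mice had 840.03, 718, 872 and 890.1 in F/F DSS libraries, against 885, 939, 969 and 1155 in F/F naive libraries. Every DIEC library was below every F/F library. DIEC naive was below F/F naive with a log2 change of -0.87 ± 0.10 (adjusted p = 9.7e-05) and DIEC DSS below F/F DSS with a log2 change of -1.09 ± 0.10 (adjusted p = 1.6e-06), and no single library ended either call. The fall with DSS in DIEC, -0.46 ± 0.10 (adjusted p = 0.00098), ended at -0.21 after TMM scaling (adjusted p = 0.099). It shared 1.75% of its words with other genes.

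The highest mean per kilobase over all libraries among the Cyp4f genes was that of Cyp4f14, an omega-hydroxylase of leukotriene B4, although in DIEC DSS libraries it averaged 709 per kilobase and Cyp4f16 averaged 723. Cyp4f14 had values of 1139, 2003, 1708 and 1362 in DIEC DSS libraries, against 3103, 3090.1, 3580.5 and 3771 in DIEC naive libraries. Cyp4f14 in F/F mice had 1846, 2848, 2122 and 2977 in F/F DSS libraries, against 2483, 3824, 3946 and 6532 in F/F naive libraries. DIEC DSS lay below DIEC naive with a log2 change of -1.15 ± 0.26 (adjusted p = 0.002) without overlap. F/F DSS lay below F/F naive with a log2 change of -0.72 ± 0.26 (adjusted p = 0.037), but F/F naive 1 was within the F/F DSS range, and this call ended at -0.62 after TMM scaling (adjusted p = 0.083) and without F/F DSS 1 or 3, or F/F naive 2, 3 or 4 (adjusted p up to 0.11). Cyp4f16 had values of 1097, 2404, 1517 and 1202 in DIEC DSS libraries, against 2565, 2224, 2154 and 2425 in DIEC naive libraries. Cyp4f16 in F/F mice had 1162, 1623, 1217 and 1175 in F/F DSS libraries, against 1716, 1600.1, 1515 and 2402 in F/F naive libraries. Its fall in DIEC, -0.66 ± 0.21 (adjusted p = 0.018), came with DIEC DSS 2 inside the naive range, and ended at -0.40 after TMM scaling (adjusted p = 0.16) and without DIEC DSS 1 or 4 (adjusted p up to 0.06). Cyp4f13 had values of 1084, 1274, 1128 and 1191 in DIEC DSS libraries, against 1088, 1083, 1019 and 972 in DIEC naive libraries. Cyp4f13 in F/F mice had 1457, 1628, 1482 and 1391 in F/F DSS libraries, against 1117, 1124, 1019.6 and 1162 in F/F naive libraries. It rose in F/F mice by 0.43 ± 0.07 (adjusted p = 0.00012) without overlap, and in DIEC mice the change was 0.17 ± 0.07 (adjusted p = 0.065) on the authors' scale and 0.42 after TMM scaling (adjusted p = 0.00028). DIEC DSS lay below F/F DSS with a log2 change of -0.35 ± 0.07 (adjusted p = 0.0019), which ended at -0.16 after TMM scaling (adjusted p = 0.22).

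Cyp4f17 had values of 65.7, 72.6, 56.9 and 71.05 in DIEC DSS libraries, against 71.1, 66.4, 71.8 and 68.6 in DIEC naive libraries. Cyp4f17 in F/F mice had 99.7, 84.9, 77.98 and 103 in F/F DSS libraries, against 81.98, 80.97, 87.3 and 84.7 in F/F naive libraries. It was lower in DIEC DSS than in F/F DSS with a log2 change of -0.45 ± 0.14 (adjusted p = 0.018), which ended at -0.26 after TMM scaling (adjusted p = 0.19) and without DIEC DSS 3, or F/F DSS 1 or 4 (adjusted p up to 0.066). Cyp4f39, whose human relative builds the lipids of the skin barrier, had values of 12.5, 8.75, 16.2 and 7.48 in DIEC DSS libraries, against 10.3, 19.1, 7.98 and 6.86 in DIEC naive libraries. Cyp4f39 in F/F mice had 18.1, 29.8, 34.6 and 14.3 in F/F DSS libraries, against 22.5, 9.64, 7.08 and 10.3 in F/F naive libraries. It was higher with DSS in F/F mice by 0.95 ± 0.38 (adjusted p = 0.048), although F/F naive 1 exceeded 2 F/F DSS libraries, and the call ended without F/F DSS 1, 2 or 3, or F/F naive 2, 3 or 4 (adjusted p up to 0.15). Cyp4b1, known from lung, had values of 76.1, 54.3, 49.9 and 61.7 in DIEC DSS libraries, against 138, 97.4, 82.5 and 105 in DIEC naive libraries. Cyp4b1 in F/F mice had 76.5, 87.9, 68.2 and 76.1 in F/F DSS libraries, against 124, 66.5, 80.2 and 116 in F/F naive libraries. Its fall in DIEC of -0.79 ± 0.20 (adjusted p = 0.0029) had no overlap. Cyp4v3, a fatty acid hydroxylase, had values of 548, 537, 461 and 470.3 in DIEC DSS libraries, against 578, 558, 484 and 454 in DIEC naive libraries. Cyp4v3 in F/F mice had 774, 690.4, 590.2 and 521 in F/F DSS libraries, against 696, 536, 424 and 470.2 in F/F naive libraries. It was not called on the authors' scale and rose in F/F mice by 0.39 after TMM scaling (adjusted p = 0.036). Cyp4f18, a leukotriene enzyme of neutrophils, ranged from 24.4 to 254.7 within DIEC DSS alone, against 85.3 to 110.4 in DIEC naive, and from 106.8 to 169.3 in F/F DSS, against 140.6 to 185.3 in F/F naive libraries. Its DIEC naive libraries all lay below its F/F naive libraries, but the change of -0.72 ± 0.49 (adjusted p = 0.55) was not called, whereas the authors' deposited table gives it as lower there, at -0.71 (adjusted p = 0.0015). Cyp4a10, a target of PPAR-alpha, had values of 3.13, 8.75, 2.32 and 0 in DIEC DSS libraries, against 2.29, 0.91, 2.66 and 0.98 in DIEC naive libraries. Cyp4a10 in F/F mice had 5.04, 5.35, 2.66 and 0 in F/F DSS libraries, against 0, 2.89, 0 and 1.03 in F/F naive libraries. It was low in every group, and its smallest adjusted p was 0.22. Cyp4x1 had values of 5.21, 6.13, 10.4 and 8.41 in DIEC DSS libraries, against 8.03, 11.8, 14.6 and 11.8 in DIEC naive libraries. Cyp4x1 in F/F mice had 10.1, 9.17, 7.09 and 6.66 in F/F DSS libraries, against 13.5, 7.71, 5.9 and 13.4 in F/F naive libraries. Its smallest adjusted p was 0.13, and Cyp4f15 and Cyp4f37 reached at most 2.89 and 2.63.

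Sterol and bile acid enzymes split in direction with DSS. Cyp27a1, the mitochondrial sterol 27-hydroxylase, had values of 1727, 1662, 1886 and 1709 in DIEC DSS libraries, against 1627, 1467, 1466 and 1329.9 in DIEC naive libraries. Cyp27a1 in F/F mice had 1658, 2011, 1769.7 and 1628 in F/F DSS libraries, against 1419, 1278, 1062 and 1103 in F/F naive libraries. It rose by 0.25 ± 0.09 (adjusted p = 0.033) in DIEC and 0.54 ± 0.09 (adjusted p = 0.00013) in F/F mice without overlap, and the DIEC call ended without DIEC DSS 1 or 3, or DIEC naive 2, 3 or 4 (adjusted p up to 0.11). Cyp39a1, which hydroxylates 24-hydroxycholesterol, had values of 308, 221, 240.2 and 281 in DIEC DSS libraries, against 680.3, 709.7, 603 and 541 in DIEC naive libraries. Cyp39a1 in F/F mice had 584, 437, 471 and 539 in F/F DSS libraries, against 902, 808, 565 and 681 in F/F naive libraries. DIEC DSS libraries were below all other libraries. It fell with a log2 change of -1.27 ± 0.14 (adjusted p = 5e-07) in DIEC and with a log2 change of -0.53 ± 0.14 (adjusted p = 0.0051) in F/F mice, where the groups overlapped, and DIEC DSS was below F/F DSS with a log2 change of -0.95 ± 0.14 (adjusted p = 0.00015). The responses differed by -0.74 ± 0.20 (adjusted p = 0.047), a call that ended at -0.59 after TMM scaling (adjusted p = 0.16) and without any of 13 of the 16 libraries, with adjusted p up to 0.1.

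Cyp46a1, cholesterol 24-hydroxylase and best known from neurons, had values of 12.5, 14, 15.1 and 15.9 in DIEC DSS libraries, against 11.5, 17.3, 10.6 and 11.8 in DIEC naive libraries. Cyp46a1 in F/F mice had 19.1, 16.8, 13.3 and 21.9 in F/F DSS libraries, against 12.3, 2.89, 8.26 and 9.3 in F/F naive libraries. It rose in F/F mice by 1.14 ± 0.32 (adjusted p = 0.0065) without overlap, while DIEC mice gave 0.18 ± 0.32 (adjusted p = 0.68), and the responses differed by -0.97 ± 0.45 (adjusted p = 0.21). Cyp7b1, an oxysterol 7-alpha-hydroxylase, had values of 42.7, 65.6, 35.97 and 63.6 in DIEC DSS libraries, against 45.9, 38.2, 23.9 and 35.3 in DIEC naive libraries. Cyp7b1 in F/F mice had 50.4, 36.7, 64.7 and 54.2 in F/F DSS libraries, against 61.8, 38.6, 51.9 and 33.1 in F/F naive libraries. It was not called on the authors' scale, and in DIEC mice it rose by 0.76 after TMM scaling (adjusted p = 0.015). Cyp8b1, which sets the cholic acid share of bile in liver, had values of 1.04, 3.5, 1.16 and 2.8 in DIEC DSS libraries, against 4.59, 0, 0 and 0.98 in DIEC naive libraries. Cyp8b1 in F/F mice had 3.02, 0.76, 5.32 and 1.9 in F/F DSS libraries, against 1.12, 0.96, 2.36 and 5.17 in F/F naive libraries. The groups overlapped, and the smallest adjusted p was 0.33.

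Cyp2r1 and Cyp27b1, which take part in vitamin D activation, were lower with DSS in DIEC mice. Cyp2r1, a 25-hydroxylase, had values of 29.2, 28.9, 25.5 and 33.7 in DIEC DSS libraries, against 58.5, 45.5, 61.2 and 70.6 in DIEC naive libraries. Cyp2r1 in F/F mice had 28.2, 30.6, 23.04 and 31.4 in F/F DSS libraries, against 60.6, 65.5, 49.6 and 63.04 in F/F naive libraries. All DSS libraries were below all naive ones, with a log2 change of -0.97 ± 0.18 (adjusted p = 0.00013) in DIEC and -1.05 ± 0.18 (adjusted p = 0.00011) in F/F mice. Cyp27b1, the 1-alpha-hydroxylase that makes the active hormone, had values of 5.21, 1.75, 2.32 and 3.74 in DIEC DSS libraries, against 9.18, 14.6, 21.3 and 8.82 in DIEC naive libraries. Cyp27b1 in F/F mice had 10.1, 4.59, 9.75 and 5.71 in F/F DSS libraries, against 11.2, 9.64, 15.3 and 11.4 in F/F naive libraries. DIEC DSS lay below DIEC naive without overlap, with a log2 change of -1.75 ± 0.35 (adjusted p = 0.00027), and F/F mice gave -0.64 ± 0.35 (adjusted p = 0.14). The lower level in DIEC DSS than in F/F DSS, -1.01 ± 0.35 (adjusted p = 0.034), ended at -0.87 after TMM scaling (adjusted p = 0.095) and without DIEC DSS 2 or 3, or F/F DSS 1 or 3 (adjusted p up to 0.1). B and plasma cell markers summed to 2899 to 9765 in DIEC DSS, against 17810 to 29450 in DIEC naive, and to 6959 to 10510 in F/F DSS, against 32350 to 45510 in F/F naive libraries. Macrophage markers summed to 3560 to 7070 in DIEC DSS, against 7176 to 9532 in DIEC naive, and to 6439 to 6786 in F/F DSS, against 8820 to 13230 in F/F naive libraries. Their part in these results was not tested.

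The retinoic acid hydroxylases were not called. Cyp26b1 had values of 66.7, 31.5, 62.7 and 49.5 in DIEC DSS libraries, against 69.98, 49.1, 37.3 and 35.3 in DIEC naive libraries. Cyp26b1 in F/F mice had 62.5, 33.6, 44.3 and 75.1 in F/F DSS libraries, against 51.7, 19.3, 56.6 and 51.7 in F/F naive libraries. Its groups overlapped, with a smallest adjusted p of 0.5. Cyp26a1 had values of 2.08, 0, 3.48 and 0 in DIEC DSS libraries, against 2.29, 0.91, 1.33 and 0.98 in DIEC naive libraries. Cyp26a1 in F/F mice had 1.01, 1.53, 2.66 and 1.9 in F/F DSS libraries, against 1.12, 0, 3.54 and 4.13 in F/F naive libraries. It was near the limit on low values throughout, with a smallest adjusted p of 0.54. Cyp11a1, which starts steroid hormone synthesis by cutting the cholesterol side chain, had values of 4.17, 1.75, 2.32 and 0.93 in DIEC DSS libraries, against 12.6, 13.7, 3.99 and 0 in DIEC naive libraries. Cyp11a1 in F/F mice had 10.1, 19.1, 15.9 and 6.66 in F/F DSS libraries, against 24.7, 14.5, 15.3 and 27.9 in F/F naive libraries. DIEC DSS was below F/F DSS without overlap, with a log2 change of -2.08 ± 0.65 (adjusted p = 0.024), a call that ended at -1.94 after TMM scaling (adjusted p = 0.056) and without DIEC DSS 2 or 4, or F/F DSS 2 or 3 (adjusted p up to 0.068). DIEC naive against F/F naive gave -1.89 ± 0.65 (adjusted p = 0.17). The orphan Cyp20a1 had values of 428, 325, 418 and 409 in DIEC DSS libraries, against 642, 609.6, 679.9 and 596 in DIEC naive libraries. Cyp20a1 in F/F mice had 513, 406, 455 and 556 in F/F DSS libraries, against 759, 709, 780.01 and 714 in F/F naive libraries. DSS libraries were below naive ones in both genotypes, with a log2 change of -0.68 ± 0.10 (adjusted p = 1.8e-05) in DIEC and -0.63 ± 0.10 (adjusted p = 9e-05) in F/F mice. Its call between the DSS groups, -0.29 ± 0.10 (adjusted p = 0.045), ended at -0.10 after TMM scaling (adjusted p = 0.56) and without DIEC DSS 2, 3 or 4, or F/F DSS 1, 3 or 4 (adjusted p up to 0.16).

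The proteins that serve P450 enzymes moved in both directions. Por, the oxidoreductase that passes electrons to P450 enzymes of the endoplasmic reticulum, averaged 6383 ± 371 in DIEC DSS, against 3780.3 ± 234 in DIEC naive, and 5571 ± 452 in F/F DSS, against 2914 ± 426 in F/F naive libraries (SD, n = 4 each). It rose with DSS by 0.76 ± 0.09 (adjusted p = 1.6e-06) in DIEC and 0.94 ± 0.09 (adjusted p = 9.4e-07) in F/F mice, and was higher in DIEC naive than in F/F naive mice by 0.39 ± 0.09 (adjusted p = 0.032). Of 9 electron donors and partners, 2 rose and 5 fell with DSS in DIEC mice, among them Cyb5r3 up and the partners Cyb5a and Pgrmc1 down, and 4 rose and 3 fell in F/F mice. These are 22.2% and 55.6% of the list in DIEC and 44.4% and 33.3% in F/F mice, beside 12.3% and 40%, and 16.3% and 28.5%, of all genes. After TMM scaling these counts were 4 and 2 in DIEC and 4 and 0 in F/F mice, beside 25.1% and 26.3%, and 22.8% and 22.5%, of all genes. Cyb5a was not called on that scale, with changes of -0.17 (adjusted p = 0.14) in DIEC and -0.14 (adjusted p = 0.23) in F/F mice. DIEC DSS against F/F DSS gave 0 higher and 2 lower on the authors' scale, beside 3.28% and 26% of all genes, and 1 and 1 after TMM scaling, beside 6.68% and 7.38%.

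Of 16 receptors that control P450 genes, 3 rose and 6 fell with DSS in DIEC mice, and 6 rose and 0 fell in F/F mice. These are 18.8% and 37.5% of the list in DIEC, near the 12.3% and 40% of all genes, and 37.5% and 0% in F/F mice, beside 16.3% and 28.5%. After TMM scaling the counts were 6 and 2 in DIEC and 6 and 0 in F/F mice, beside 25.1% and 26.3%, and 22.8% and 22.5%, of all genes. Ppara, a receptor of fatty acids, averaged 319.7 ± 43.8 in DIEC DSS, against 476 ± 33.6 in DIEC naive, and 532 ± 45.7 in F/F DSS, against 434 ± 68.9 in F/F naive libraries. It fell in DIEC with a log2 change of -0.58 ± 0.12 (adjusted p = 0.00032), rose in F/F mice by 0.3 ± 0.12 (adjusted p = 0.041), and was the receptor whose response differed between the genotypes, by -0.88 ± 0.17 (adjusted p = 0.011), or -0.73 (adjusted p = 0.037) after TMM scaling. The HNF4 motif is shown above for 6 Cyp2c promoters, and the list holds Hnf4a and Hnf4g. Hnf4a rose by 0.21 ± 0.08 (adjusted p = 0.031) in DIEC and 0.39 ± 0.08 (adjusted p = 0.00059) in F/F mice. Hnf4g was called lower with DSS in DIEC mice on the authors' scale, at 1435 ± 208 against 1776 ± 200. It was not called in F/F mice, at 1437 ± 255 against 1549 ± 107. TMM scaling left 2 lower receptors in DIEC in place of 6, and whether Hnf4g was among them is not given here. Between the DSS groups 0 receptors were higher and 6 lower (37.5%) in DIEC DSS, beside 3.28% and 26% of all genes, and 0 higher and 3 lower (18.8%) after TMM scaling, beside 6.68% and 7.38%. In naive colon Nr1h3, the liver X receptor alpha, was lower in DIEC, with a log2 change of -0.49 ± 0.11 (adjusted p = 0.014).

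Other genes of the pathways around P450 were counted in the same fit. The share of all genes tested that was higher and lower was 12.3% and 40% in DIEC DSS against DIEC naive, 16.3% and 28.5% in F/F DSS against F/F naive, and 3.28% and 26% in DIEC DSS against F/F DSS. After TMM scaling these shares were 25.1% and 26.3%, 22.8% and 22.5%, and 6.68% and 7.38%, in the same order. Among 36 conjugation enzymes 4 (11.1%) rose and 21 (58.3%) fell with DSS in DIEC mice, beside 12.3% and 40% of all genes. In F/F mice 6 (16.7%) rose and 10 (27.8%) fell, near the 16.3% and 28.5% of all genes. Between the DSS groups 3 (8.33%) were higher and 18 (50%) lower in DIEC DSS, beside 3.28% and 26%. After TMM scaling the conjugation enzymes gave 7 (19.4%) and 12 (33.3%) in DIEC, 9 (25%) and 8 (22.2%) in F/F mice, and 4 (11.1%) and 15 (41.7%) between the DSS groups, where all genes gave 6.68% and 7.38%.

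The 30 other drug oxidoreductases had 3 higher (10%) and 15 lower (50%) in DIEC, beside 12.3% and 40% of all genes. With 6 higher (20%) and 9 lower (30%) in F/F mice they were near the 16.3% and 28.5% of all genes, and between the DSS groups 2 (6.67%) were higher and 11 (36.7%) lower, beside 3.28% and 26%. After TMM scaling they gave 5 (16.7%) and 10 (33.3%) in DIEC, 8 (26.7%) and 7 (23.3%) in F/F mice, and 3 (10%) and 4 (13.3%) between the DSS groups. The 9 genes of the aryl hydrocarbon receptor battery outside the P450 family had 1 higher (11.1%) and 6 lower (66.7%) in DIEC, beside 12.3% and 40% of all genes, and 1 (11.1%) and 3 (33.3%) in F/F mice, beside 16.3% and 28.5%. Between the DSS groups 1 (11.1%) was higher and 5 (55.6%) lower, beside 3.28% and 26%. After TMM scaling this battery gave 1 (11.1%) and 2 (22.2%) in DIEC, 1 (11.1%) and 3 (33.3%) in F/F mice, and 2 (22.2%) and 4 (44.4%) between the DSS groups. Nqo1, a quinone reductase of that battery, averaged 354 ± 81.7 in DIEC DSS, against 1056 ± 167 in DIEC naive, and 677 ± 148 in F/F DSS, against 1076 ± 121 in F/F naive libraries.

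The 15 arachidonate and epoxide enzymes had 0 higher and 6 lower (40%) in DIEC, beside 12.3% and 40% of all genes, and 1 (6.67%) and 4 (26.7%) in F/F mice, beside 16.3% and 28.5%. Between the DSS groups 0 were higher and 5 (33.3%) lower, beside 3.28% and 26%, so the lower shares were near those of all genes. After TMM scaling they gave 2 (13.3%) and 4 (26.7%) in DIEC, 3 (20%) and 3 (20%) in F/F mice, and 0 and 3 (20%) between the DSS groups. The 18 retinoid genes had 6 higher (33.3%) and 5 lower (27.8%) in DIEC, beside 12.3% and 40% of all genes, and 8 (44.4%) and 5 (27.8%) in F/F mice, beside 16.3% and 28.5%. Between the DSS groups 2 (11.1%) were higher and 2 (11.1%) lower, beside 3.28% and 26%. After TMM scaling the retinoid genes gave 11 (61.1%) and 5 (27.8%) in DIEC, 10 (55.6%) and 5 (27.8%) in F/F mice, and 5 (27.8%) and 0 between the DSS groups. Aldh1a3, which makes retinoic acid, rose by 2.59 ± 0.4 (adjusted p = 0.00011) in DIEC and 1.11 ± 0.4 (adjusted p = 0.039) in F/F mice. Of the 17 steroid genes tested, 1 (5.88%) rose and 11 (64.7%) fell in DIEC, beside 12.3% and 40% of all genes, while 2 (11.8%) rose and 3 (17.6%) fell in F/F mice, beside 16.3% and 28.5%. Between the DSS groups 2 (11.8%) were higher and 5 (29.4%) lower, beside 3.28% and 26%, and after TMM scaling the steroid genes gave 3 (17.6%) and 5 (29.4%) in DIEC, 2 (11.8%) and 3 (17.6%) in F/F mice, and 2 (11.8%) and 4 (23.5%) between the DSS groups.

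The authors' deposited table, from their own fit, called 9 members higher and 11 lower for DSS in DIEC mice and 14 higher and 7 lower in F/F mice. That deposited table of the authors had 3 members higher and 2 lower in DIEC naive against F/F naive, and 3 higher and 7 lower in DIEC DSS against F/F DSS. The share of all genes called in the authors' fit was not counted here, so these member counts are not set against a background. For both comparisons with DIEC DSS these counts lie nearer to those after TMM scaling than to those on the deposited scale.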

How the data were processed

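RNA from the colons of 3 mice was pooled per library with the TruSeq RNA kit, per the labels' protocols. The submitters' processing notes name bcl2fastq, STAR 2.2.0c, HOMER 4.9 and mm10, while the gene models are mm9 per the file headers. The build of the alignment is thus unsettled. The deposited signal is the number of reads on the exons of a gene, multiplied by the authors with 1 factor per library, and in all libraries 100% of the values were whole multiples of 1 read within 0.01. The deposited table also gives the authors' own log2 fold changes and adjusted p-values from their fit, which were quoted as such. Counting used 1 strand setting per the file headers, and the kit in its standard form does not mark strand.

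The 18267 of 24421 genes that reached 1 in 4 or more libraries were tested with limma 3.58.1 (trend and robust) on log2(value + 1), with 1 mean for each of the 4 groups over 16 libraries and Benjamini-Hochberg adjustment over all genes. The alternatives were TMM scaling, DESeq2 size factors, other pseudocounts and filters, edgeR 4.0.16, voom and DESeq2 1.42.0 on the recovered reads, the replicate number as a block, and each library left out. A log2(value + 1) change understates the change of low genes, and intervals cover counting error only. Libraries held 19957413 to 34733832 reads on genes, 77.0 to 81.7% of each library's total in the header.

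Every member was accounted for by subfamily. Values in each library were given for the called members and for the member with the highest mean per kilobase of each subfamily, and ranges for the others. The rule for members uses no difference between groups, but members, gene lists and marker lists were chosen with earlier results of these data known. Positions are mm9 from the deposited table, while promoters and coding sequences come from GRCm38 and were matched by symbol.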

Additional observations from a re-analysis of the deposited data

Results flagged for a closer look

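Of 132 groups of 4 libraries checked over the 33 called genes, 14 held 1 library that stood apart from the others by more than Dixon's 95% limit, taken on the gap to its nearest neighbour over the group's range. Chance gives such a library in about 1 of 20 groups. In DIEC DSS, replicate 2 was high for Cyp2d10 (9847.28), Cyp2d12 (6490.17), Cyp2d9 (3128.69) and Cyp2d26 (656.37) and low for Cyp20a1 (324.68). Replicate 3 of that group was high for Cyp4f40 (421.23), and replicate 4 for Cyp2c66 (0.93), which was 0 in the other 3. In F/F DSS, replicate 2 was high for Cyp2d12 (4596.95), Cyp2d26 (469.4) and Cyp4f16 (1623.04). In DIEC naive, replicate 3 was low for Cyp2d12 (1909.32) and replicate 4 for Cyp2c69 (81.34). In F/F naive, replicate 4 was high for Cyp2d26 (594.23) and replicate 2 low for Cyp2e1 (137.84).

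The DSS response of DIEC mice differed from that of F/F mice in an interaction test for Cyp2w1 (-3.6 on the log2 scale), Cyp2c69 (-1.18) and Cyp39a1 (-0.74). Of all genes 3.34% were called lower in this test on the authors' scale and 0.383% after TMM scaling. TMM scaling ended the calls of Cyp2c69 and Cyp39a1 and kept that of Cyp2w1. On the authors' scale Cyp2w1 stood at 1.69 ± 1.29 in DIEC DSS, against 34.5 ± 2.29 in DIEC naive, and at 51.2 ± 27.6 in F/F DSS, against 53.9 ± 8.92 in F/F naive libraries (SD, n = 4 each).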

How the results depend on the processing

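Of 66 calls of single genes, 37 held under every alternative that could be run, and none changed direction. TMM scaling and DESeq2 size factors each ended 18 of 66. The number of members lower in DIEC DSS against DIEC naive was 17 of 59 (28.8%), beside 40% of all genes. It became 11 of 44 (25%) with edgeR, beside 29.7% of all genes. It was 11 with voom, beside 4661 of 15695 genes, and 10 with DESeq2, beside 4562 of 15691 genes. Between DIEC DSS and F/F DSS the number of members lower was 15, and became 5 with TMM scaling, 5 with size factors, 6 with edgeR, 4 with voom and 7 with DESeq2. Over all genes the lower calls there went from 4747 to 1348, 1250, 1342, 1218 and 1493, in the same order. In DIEC naive against F/F naive the 1 higher became 3 and the 1 lower became 2 when only those groups were fitted. Over all genes 258 higher became 291 and 150 lower became 309 in that fit. For the difference of responses 3 lower became 1 with TMM scaling, size factors, edgeR or voom. Over all genes 611 lower became 70, 66, 74 and 64, in the same order. The tools on reads tested 15695 genes, 44 of the 59 members among them.

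Leaving out each library gave 4 to 6 higher and 14 to 17 lower in DIEC DSS against DIEC naive, 10 to 14 and 6 to 9 in F/F DSS against F/F naive, 0 to 1 and 1 to 1 in DIEC naive against F/F naive, 1 to 4 and 9 to 14 in DIEC DSS against F/F DSS, and 0 to 0 and 2 to 4 for the difference of responses. Over all genes the higher and lower calls ranged from 1901 to 2460 and 6817 to 7237 for DSS in DIEC mice. For DSS in F/F mice they ranged from 2452 to 2863 and 4559 to 5069. Between the naive groups they were 151 to 250 and 81 to 140, and between the DSS groups 489 to 617 and 3535 to 5229. The difference of responses varied most, with 19 to 77 higher and 122 to 1584 lower, against 53 and 611 with every library. The 3 higher in DIEC DSS against F/F DSS became 1 without F/F DSS 1, 3 or 4 or without DIEC DSS 2. The 15 lower became 9 without F/F DSS 1, where the lower calls of all genes went from 4747 to 3727. The 1 higher between the naive groups became 0 without any library but F/F naive 4.

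Over all genes, same-numbered libraries did not deviate together in every pair (correlations of 0.23, 0.21, -0.15 and 0.04 between the DSS groups). Some marker sums did follow the number. In all 4 groups the fibroblast sum was highest in replicate 1 and lowest in replicate 2, and the endothelial sum was highest in replicate 1. What the numbers mark is not stated in the sources used here. With the replicate block the naive comparison had 2 members higher in place of 1, beside 287 in place of 258 over all genes. With this block 2 of 66 single-gene calls ended. Over all genes the block moved the difference of responses from 53 higher and 611 lower to 110 and 1137. Genes with under 10 reads in a group remain limited by depth.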
